A study of Mus musculus with 6 samples.

Results

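Regions of open chromatin that became more accessible in FOP mutant fibroblasts and that lie alone, far from any gene, are described here. A member is a region of the authors' more accessible list with no other region of that list within 10 kb, whose midpoint is more than 100 kb from the nearest protein-coding gene of RefSeq. There were 593 such regions among the 2965 more accessible regions (20%, exact 95% interval 18.6 to 21.5%) and 3521 listed regions in all. The name desert regions is used for them below. The direction of change and the positions chose them, so their membership is a description and was not tested. ATAC-seq reads accessibility from where a transposase can insert adapters into DNA. It was run on fibroblasts of mouse embryos of embryonic day 13.5, grown in medium with serum. The 3 wild-type libraries had the genotype Acvr1+/+. The 3 mutant libraries were Acvr1R206H/+, heterozygous for the activating change in the BMP receptor ALK2 that causes fibrodysplasia ossificans progressiva (FOP), a disorder in which bone forms in soft tissue. The series' design text speaks of biological replicates but does not say whether each came from its own embryo, and no source used here names the sex or strain of the embryos. The deposited lists hold positions only. They give no region a signal, a size of change or a value in any library, so no spread between replicates could be set against any value below. Depth is unknown here, and the labelled cell type could not be set against marker genes.

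Gene deserts are long stretches without protein-coding genes. Many lie beside genes of embryonic patterning and hold enhancers, short stretches of DNA that bind transcription factors and act on a promoter through looping, at times over a megabase. An enhancer need not act on the gene next to it, so the flanking genes below give an address and not a target.

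The desert regions that overlap a promoter window or a microRNA are the ones whose sequence could be read, since the tables used hold promoters and microRNAs only. RefSeq promoter windows (GRCm38.p6, 250 bases before to 50 after the start of a transcript) overlapped 3 desert regions, each at a long noncoding RNA (lncRNA). Gm31154 lies between Postn, which encodes the matrix protein periostin, and Supt20. Its window is chr3:54534842-54535141 on the minus strand, and 244 of its bases are inside a desert region of 896 bp, 144 kb from Postn. Gm29835 lies between Id2, a BMP target gene encoding an inhibitor of bHLH factors, and Rnf144a. Its window, chr12:25978793-25979092 on the plus strand, shares 163 bases with a region of 537 bp that is 883 kb from Id2 and 328 kb from Rnf144a. Gm40430 lies between Fbxo33 and Gm32936, with the window chr12:59659747-59660046 on the plus strand and 109 bases shared with a region of 232 bp. In the 3 sequences, written 5′ to 3′, capitals mark the bases inside the desert region.
Gm31154 promoter: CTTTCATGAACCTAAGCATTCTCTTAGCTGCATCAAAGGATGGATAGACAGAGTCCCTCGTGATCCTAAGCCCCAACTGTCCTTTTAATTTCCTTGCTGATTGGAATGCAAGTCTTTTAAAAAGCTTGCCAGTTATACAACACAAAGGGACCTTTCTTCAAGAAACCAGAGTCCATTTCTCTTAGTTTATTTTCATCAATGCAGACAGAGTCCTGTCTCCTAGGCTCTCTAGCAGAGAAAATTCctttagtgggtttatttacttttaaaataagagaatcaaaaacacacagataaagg
Gm29835 promoter: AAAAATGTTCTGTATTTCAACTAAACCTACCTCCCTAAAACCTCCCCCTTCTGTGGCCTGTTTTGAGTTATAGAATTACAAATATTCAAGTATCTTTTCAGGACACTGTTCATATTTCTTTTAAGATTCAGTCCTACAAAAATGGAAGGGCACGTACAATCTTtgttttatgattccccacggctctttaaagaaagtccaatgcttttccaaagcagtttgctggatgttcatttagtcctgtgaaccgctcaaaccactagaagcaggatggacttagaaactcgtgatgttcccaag
Gm40430 promoter: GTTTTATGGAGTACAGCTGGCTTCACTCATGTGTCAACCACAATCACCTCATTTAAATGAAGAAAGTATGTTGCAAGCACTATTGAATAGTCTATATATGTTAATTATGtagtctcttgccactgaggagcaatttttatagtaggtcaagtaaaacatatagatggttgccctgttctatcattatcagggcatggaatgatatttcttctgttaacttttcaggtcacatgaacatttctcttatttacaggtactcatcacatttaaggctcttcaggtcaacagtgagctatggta
In none of the 3 was the annotated start site itself inside the region, which covered upstream sequence. The windows were searched on both strands for TGANTCA (AP-1), GGAATG (TEAD), TGTGGT (RUNX) and GGCGCC (a GC-rich element bound by BMP-activated SMADs). The TEAD letters occurred once in Gm31154, inside the desert region, and once in Gm40430, outside it. The RUNX letters occurred once in Gm40430, inside the region. Gm29835 held none of the 4 motifs. Of 32817 RefSeq promoter windows of the same length, 7.81% held the AP-1 letters, 14.7% the TEAD letters, 16.8% the RUNX letters and 11.9% the GC-rich letters, so such matches are common.

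A microRNA gene was touched by 1 desert region. Mir802 lies in the 0.757 Mb between Runx1, a RUNX transcription factor of blood and skeletal cells, and Setd4. The region (chr16:93368903-93369775, 873 bp) was 543 kb from Runx1 and 214 kb from Setd4. It covered 56 of the 97 bases of the hairpin at chr16:93369720-93369816 on the plus strand, including all 22 bases of the 5p arm and 1 base of the 3p arm. The mature sequences from RefSeq (GRCm38.p6) are shown because they place the region on the microRNA itself; capitals mark the seed, bases 2 to 8.
mmu-miR-802-5p: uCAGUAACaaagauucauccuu
mmu-miR-802-3p: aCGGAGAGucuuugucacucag
The seeds of the arms differ. A second desert region of the same gap, 924 bp wide, lay 413 kb from Runx1 and 131 kb from Mir802. Apart from these, a desert region between Prl5a1 and Sox4 (398 bp) lay 1270 bases from the hairpin of Mir6368.

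More accessible regions were spread over desert sequence near to and far from genes and thinned out beyond. The sequence farther than 100 kb from a protein-coding gene made up 738 Mb, 28.4% of the annotated extent of the autosomes and X. It held 0.803 desert regions per Mb (95% Poisson interval 0.740 to 0.870). Isolated more accessible regions inside genes numbered 1.14 per Mb (1.08 to 1.21), those within 10 kb of a gene 0.758 (0.654 to 0.874) and those 50 to 100 kb from a gene 1.24 (1.09 to 1.40). At 100 to 200 kb the density was 1.13 per Mb (0.994 to 1.28), close to the value in genes. It was 0.926 (0.818 to 1.04) at 200 to 500 kb, 0.421 (0.326 to 0.536) at 500 to 1000 kb and 0.162 (0.0837 to 0.283) farther out. These intervals cover counting error only, neighbouring regions are not independent, and the peaks the authors tested in each class were not analysed here.

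**Figure D1:**
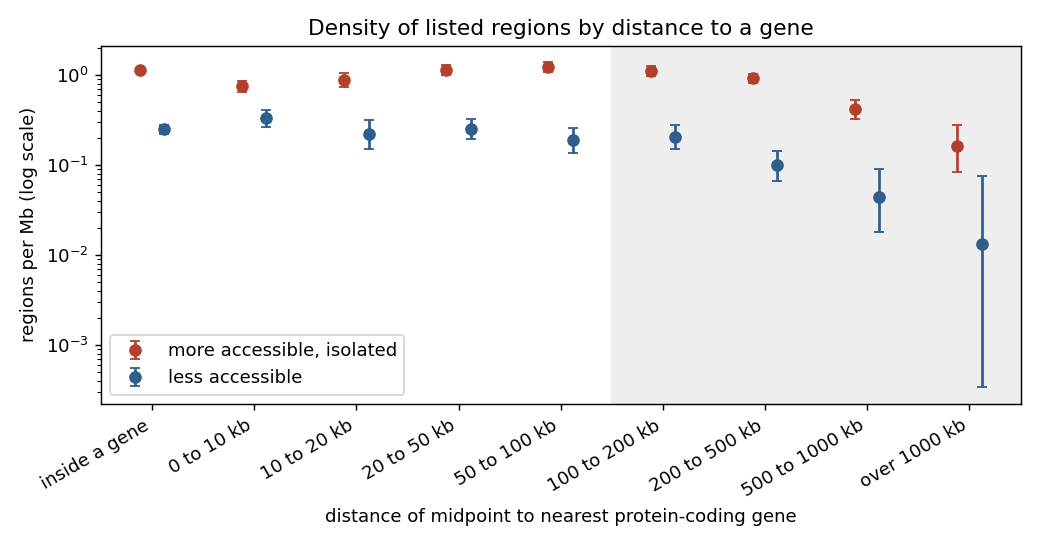
Density of isolated more accessible regions (red) and less accessible regions (blue) per Mb of sequence, on a log axis, by distance of the midpoint to the nearest protein-coding gene; bars are exact 95% Poisson intervals and the grey area holds the desert regions. Red points stay near 1 per Mb to 500 kb and drop to 0.162 per Mb beyond 1000 kb.

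The less accessible list thinned out over the same distances. It had 83 regions over 100 kb from a gene (14.9% of 556, exact 95% interval 12.1 to 18.2%), against 676 of the more accessible list when its clustered regions are included (22.8%, 21.3 to 24.4%). For every less accessible region there were 2.44 more accessible ones, clustered ones included, within 10 kb of a gene, 5.21 inside genes, 6.48 at 100 to 200 kb and 10.1 at 200 to 500 kb. Only 1 less accessible region, against 12 more accessible ones, lay over 1000 kb from a gene. All 83 less accessible desert regions were isolated within their own list. That list held 0.112 regions per Mb over 100 kb from a gene, against 0.916 for the more accessible list. A sparser list leaves more of its regions isolated.

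Desert regions were about as wide as the rest of their list. Their width was 617 ± 247 bp (SD over 593 regions; range 200 to 1589 bp, median 561), against 619 ± 241 bp for the 2372 other more accessible regions (median 574). Isolated regions outside genes but within 100 kb of one had a median of 595 bp (839 regions). Less accessible desert regions had a median of 611 bp (83 regions). In all, the desert regions covered 366 kb.

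The typical desert region lay 228 kb from its nearest gene and 537 kb from the gene on the other side (medians). The distance to the nearest gene ran from 100 to 2128 kb, with quartiles at 149 and 357 kb; 343 regions (57.8%) were over 200 kb from any gene, 78 (13.2%) over 500 kb and 12 (2.02%) over 1000 kb. The farthest, a region of 245 bp on chromosome 18, lay 2128 kb from Pik3c3, the class III PI3-kinase gene, and 2383 kb from Celf4, an RNA-binding protein gene of neurons. Their gap of 4.51 Mb is the longest that holds a desert region. Next came regions between Zeb2 and Acvr2a (1829 kb), Slc10a2 and Efnb2 (1605 kb), Pabpc4l and Pcdh18 (1508 kb) and the cadherin genes Cdh6 and Cdh9 (1366 kb). At the limit of the rule, the members nearest to a gene lay 100.23 kb from Tmem26, 100.39 kb from Setbp1, and 100.47 kb from Bmp4. Among the regions just left out, 1 lay 99.76 kb from a gene in the gap of Chmp2b and Vgll3 and another 99.73 kb in that of Plekhb2 and Hs6st1. At the limit of isolation, a pair of members between Ebf1 and Clint1 were 10.12 kb apart, and a pair left out between Opa1 and Hes1 were 9.63 kb apart.

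The 593 regions fell into 346 gaps, a gap being the stretch between neighbouring protein-coding genes. A gap must exceed 200 kb to hold a desert region, and 22.5% of the 1537 gaps of that length held at least 1 (exact 95% interval 20.4 to 24.7%). Those gaps were 206 to 4511 kb long with a median of 668 kb, against 374 kb for the 1191 gaps without one. Longer gaps were more often occupied but less densely. Of gaps between 200 and 500 kb 12.1% held a desert region, of those between 500 kb and 1 Mb 32.9%, of those between 1 and 2 Mb 40.1% and of those over 2 Mb 44.0%. Per Mb of sequence over 100 kb from a gene, the same classes held 1.44 (95% Poisson interval 1.21 to 1.70), 1.10 (0.953 to 1.26), 0.795 (0.684 to 0.918) and 0.293 (0.227 to 0.373) desert regions. No gap had a placeholder-named gene (Gm, Rik or LOC symbols, mostly predicted genes) on both sides, and 44 had one on 1 side.

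**Figure D2:**
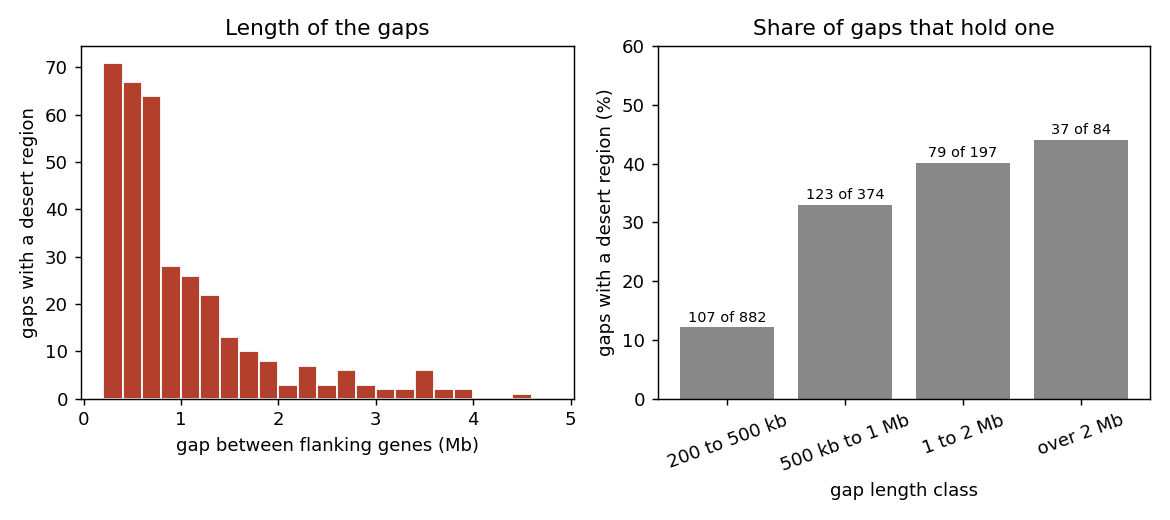
Left, number of gaps with a desert region by gap length in Mb; right, percent of all gaps in each length class that hold at least 1 desert region, with counts above the bars. The occupied share is 12.1% in the shortest class and 44.0% in the longest.

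Desert regions shared gaps. A single desert region was found in 205 gaps, while 141 gaps held 388 of them (65.4%), and 58 gaps with at least 3 held 222 (37.4%). Neighbours within a gap were a median of 122 kb apart (quartiles 51.2 and 246 kb, 247 neighbouring pairs). Counting every more accessible region, 132 desert regions (22.3%) had the next one within 50 kb and 238 (40.1%) within 100 kb. The regions of a gap share their flanking genes and are not independent.

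The gap beside Sox9, which encodes the master transcription factor of cartilage, held 8 desert regions, as many as any gap. It spans 1.06 Mb on chromosome 11 (111726302 to 112782209) between Gm11677 and Sox9. The regions lay 183, 302, 370, 557, 618, 675, 758 and 786 kb from Sox9 and were 364 to 1031 bp wide. They were spread over 602.5 kb of the gap, with neighbours 27.7 to 187 kb apart. Without placeholder-named genes the gap reaches to the potassium channel gene Kcnj2, 1.71 Mb away, and holds 9.

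The gap between Fat4, an atypical cadherin of tissue polarity, and Intu, a gene of planar polarity and cilia, also held 8 (chromosome 3, 39011993 to 40531290, 1.52 Mb). They lay 133, 349, 489, 516, 779, 1156, 1184 and 1320 kb from Fat4. Another 4 more accessible regions there were over 100 kb from a gene but clustered, and 15 lay in the gap at any distance. On its other side Fat4 had 1 desert region in the 400 kb gap to Ankrd50, and the next gap, from Ankrd50 to Gm5148 (0.725 Mb, to Spry1 without placeholder names), held 5. These last were evenly set, 37.3 to 63.8 kb apart. Spry1 encodes an inhibitor of FGF signalling.

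Cdh11, a cadherin of mesenchymal cells and osteoblasts, had 10 desert regions in its 2 gaps, the most of the 645 flanking genes. Between Cdh11 and Cdh5, the cadherin of endothelium, 7 lay in 1.32 Mb of chromosome 8 (102785494 to 104101612). Their distances from Cdh11 were 115, 487, 648, 707, 797, 927 and 1129 kb, which makes the last of them 188 kb from Cdh5. On the other side, in the 3.21 Mb to the neural cadherin gene Cdh8, 3 regions lay 141, 533 and 717 kb from Cdh11 and 2498 to 3073 kb from Cdh8. Within that long gap the regions were thus all at the Cdh11 end.

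**Figure D3:**
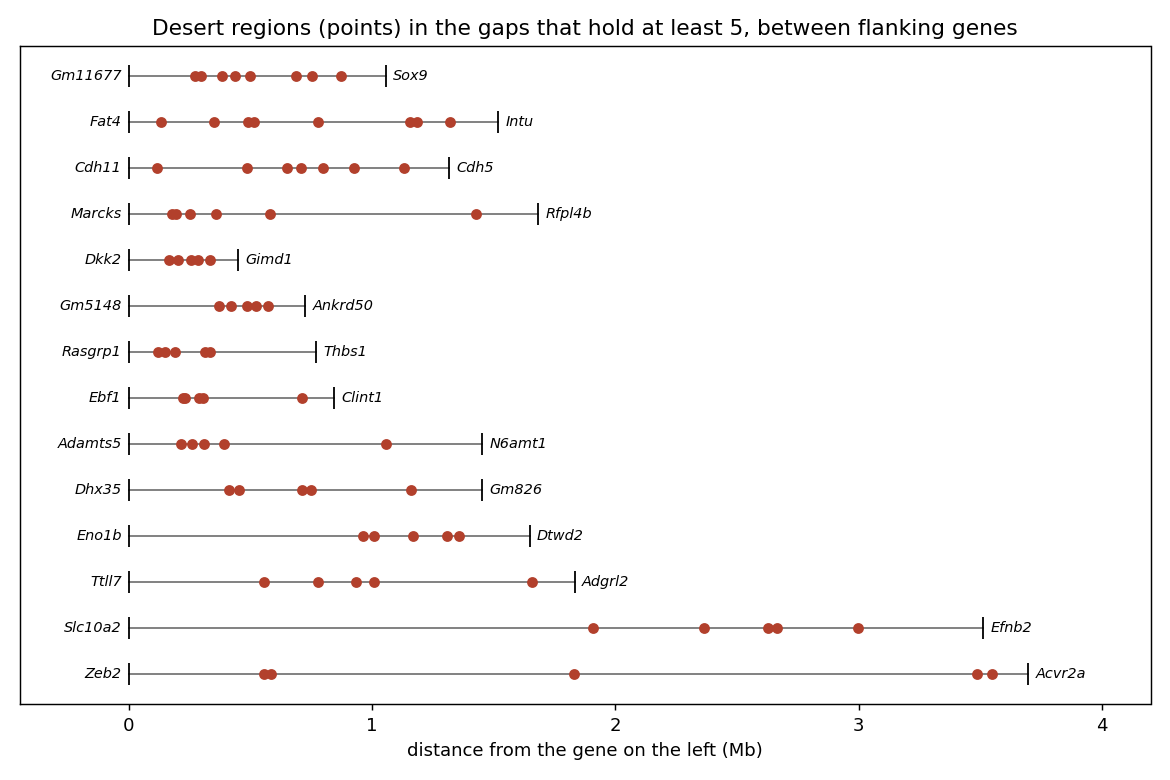
Positions of desert regions (points) between the flanking genes (vertical ticks) in the 14 gaps with at least 5 of them, in Mb from the gene on the left. Points run along most of the Fat4 and Cdh11 gaps, while in the Sox9 gap none lies within 270 kb of Gm11677. They lie nearer to Marcks for 5 of 6 and nearer to Efnb2 for 5 of 5 in their gaps. Between Zeb2 and Acvr2a they sit at both ends and in the middle.

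Marcks, whose product links actin filaments to the membrane, and Rfpl4b flanked 6 regions in 1.68 Mb. Of these, 5 lay 176, 195, 251, 357 and 578 kb from Marcks and the other 1428 kb away. Between Zeb2, a SMAD-interacting repressor of mesenchymal cells, and Acvr2a, a type II receptor for activins and BMPs, 5 regions lay in 3.70 Mb. They were 554, 583, 1829, 3485 and 3550 kb from Zeb2, which puts the last pair 212 and 146 kb from Acvr2a. Between Slc10a2, a bile acid transporter gene, and Efnb2, the ephrin-B2 gene, all 5 regions of the 3.51 Mb were nearer to Efnb2, 513 to 1605 kb from it and 1907 to 2999 kb from Slc10a2.

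Secreted factors and matrix genes flanked further gaps with 5 regions. Dkk2, a secreted modulator of WNT signalling, and Gimd1 are only 450 kb apart, and their 5 regions lay 164, 204, 257, 283 and 333 kb from Dkk2. Thbs1 encodes thrombospondin-1, a matrix protein that activates latent TGF-beta. The 5 regions of its 0.769 Mb gap to Rasgrp1 lay 437 to 650 kb from Thbs1 and 119 to 332 kb from Rasgrp1. Adamts5, an aggrecan-cleaving protease gene, had 4 regions 215 to 391 kb away and 1 at 1058 kb, in 1.45 Mb to N6amt1. Ebf1, a transcription factor gene of B cells and of adipocyte precursors, had 4 regions 222 to 304 kb away and 1 at 711 kb, in 0.844 Mb to Clint1. The remaining gaps with 5 were Dhx35 to Gm826 (1.45 Mb), Eno1b to Dtwd2 (1.65 Mb) and Ttll7 to the latrophilin gene Adgrl2 (1.83 Mb).

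There were 11 gaps with 4 desert regions. The shortest was Tmem26 to Rhobtb1 (0.368 Mb), where the 4 lay 100 to 205 kb from Tmem26. Cxcl12, a chemokine gene of stromal cells, had 4 in the 0.659 Mb to Zfp637, 242 to 473 kb away, and 3 in the 0.452 Mb to Tmem72, 7 in all. Adgrl2 had 4 in the 2.45 Mb to Adgrl4, 9 in all with its other side. The others were Cd83 to Jarid2 (0.928 Mb), Rps24 to Zmiz1 (0.961 Mb), Tox to Car8 (1.15 Mb), Usp25 to Cxadr (1.18 Mb), Klf4 to Actl7b (1.21 Mb), Adam34l to the atypical cadherin gene Fat1 (1.23 Mb), Ccdc54 to Cblb (1.44 Mb) and Frg1 to Triml1 (1.71 Mb). Klf4, a pluripotency and differentiation factor gene, had regions at 230, 259, 817 and 1009 kb.

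The 33 gaps with 3 desert regions ran from 0.443 to 3.55 Mb. Receptor, ligand and guidance genes stood beside Wdr11 to Fgfr2, a fibroblast growth factor receptor gene (0.527 Mb), Fgf9 to 1700129C05Rik (1.02 Mb), Pdgfc to Ctso (0.719 Mb), Sema3d to Sema3a, both semaphorin genes (0.536 Mb), Epha3 to Csnka2ip (0.614 Mb), Epha7 to Map3k7 (3.00 Mb), Unc5d to Dusp26 (1.87 Mb) and Mctp2 to Rgma, a BMP co-receptor gene (1.07 Mb). Transcription regulators stood beside Zfp521 to Ss18 (0.653 Mb), Zfp608 to Gramd3 (1.39 Mb), Tle1 to Aldoart1 (0.650 Mb), Tle4 to Psat1 (1.31 Mb) and Gm44812 to Mctp2 (1.49 Mb, to Nr2f2 without placeholder names). Matrix, adhesion and collagen-modifying genes stood beside Cd109 to Col12a1 (0.883 Mb), Plod2 to Dipk2a (1.91 Mb), Cdh6 to Cdh9 (3.55 Mb), Cdh8 to Cdh11 and Igfbp3 to the tensin gene Tns3 (1.22 Mb). Kinase and phosphatase genes stood beside Map2k6 to Kcnj16 (0.443 Mb), Dusp6 to Csl (0.490 Mb) and 1500009L16Rik to Nuak1 (0.608 Mb). Map2k6 activates p38 kinases, Dusp6 switches off ERK, and Nuak1 acts on myosin phosphatase. Others were Tmem72 to Cxcl12, Npvf to Gm38821, Enc1 to Arhgef28, Dmac1 to Ptprd, Plpp3 to Usp24, Bckdhb to Tent5a, Brinp1 to Cdk5rap2, Arpp21 to Pdcd6ip, Slc8a1 to Pkdcc, Nrsn1 to Hdgfl1 and Mdga2 to Rps29.

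The 5 longest gaps with a desert region were sparsely filled apart from that of Zeb2. Celf4 to Pik3c3 (4.51 Mb) held 2, Tenm3 to Aga (3.99 Mb) 1, Slc39a10 to Tmeff2 (3.97 Mb) 1 and Pcdh7 to G6pd2 (3.68 Mb) 2.

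The flanking genes were grouped by 9 family lists. Since the members and lists were chosen with earlier results known, and gaps differ in length, the counts are given beside those of the other gaps over 200 kb and no test was made. Bone and cartilage genes flanked 16 of 346 gaps with a desert region (4.62%) and 15 of 1191 without (1.26%). The same shares were 2.80 and 1.29% for gaps of 200 to 500 kb, 6.50 and 1.59% for 500 kb to 1 Mb and 4.31 and 0.606% above 1 Mb. The 36 regions in gaps beside these genes made 2.13 per Mb, where all gaps had 0.803. There were 12 such genes, and Cdh11 with 10 regions and Sox9 with 8 account for 18 of the 36.

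The regions of the other bone and cartilage genes lay 100 to 417 kb from them. Bmp4, a BMP ligand gene, had 4 regions, at 100 and 176 kb on the side of Cdkn3 and at 228 and 346 kb on the side of Ddhd1. Bmp2, another ligand gene, had 1 on each side, 104 kb away toward Hao1 and 417 kb away toward Fermt1. Zfp521, a zinc finger regulator of osteoblasts, had 3 regions 196 to 237 kb away toward Ss18 and 1 at 115 kb toward Hrh4. Runx2, the master transcription factor gene of osteoblasts, had 1 at 106 kb in the 216 kb gap to Clic5. Sox5, a partner of Sox9 in cartilage, had 2 at 238 and 383 kb. Msx2, Mef2c, Trps1 and Sox6, transcription factor genes of skeletal development, had 1 each, 236 to 378 kb away.

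**Figure D4:**
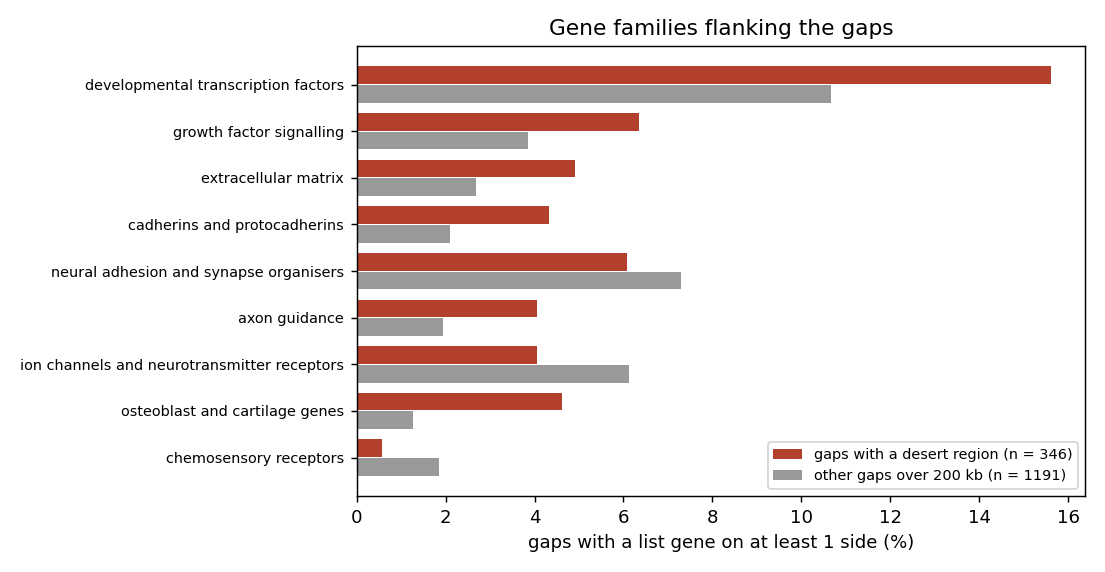
Percent of gaps with a gene of each family list on at least 1 side, for the 346 gaps with a desert region (red) and the 1191 other gaps over 200 kb (grey). The bone and cartilage list has 4.62% against 1.26%, and 3 lists, of neural adhesion, ion channel and chemosensory genes, have the longer grey bar.

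Developmental transcription factors flanked 54 gaps with a desert region (15.6%) and 127 without (10.7%), by 48 genes. The shares were 11.2 and 8.90%, 21.1 and 16.7%, and 13.8 and 9.70% in the 3 length classes from shortest to longest. After Sox9 came Ebf1, Zeb2, Zfp521, Klf4 and Tox, with 4 or 5 regions each. Tox had its 4 at 356 to 697 kb. Among genes with 1 to 3 regions, Osr1, an early mesenchyme factor gene, had 3 in its 2 gaps, Tbx15, Tbx18 and Hand2 2 each, and Shox2 and Gli3 1 each.

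Growth factor signalling genes flanked 22 gaps with a desert region (6.36%) and 46 without (3.86%). The shares were 4.67 and 4.0% for gaps of 200 to 500 kb, 8.13 and 3.98% for 500 kb to 1 Mb and 6.03 and 3.03% above 1 Mb. The genes with the most were Acvr2a and Dkk2 with 5, Bmp4 with 4, and Fgfr2, Rgma and Fgf9 with 3. Fgfr2 had its regions 137 to 415 kb away, Rgma 377 to 748 kb and Fgf9 406 to 877 kb. Bmper, a secreted BMP modulator, Fst, which encodes the activin antagonist follistatin, Tgfb2 and Gdf6, a BMP-family ligand of joints, had 2 each. The regions of Gdf6 lay 850 and 906 kb from it and were nearer to the gene on the other side, 2610301B20Rik, at 106 and 162 kb. Those of Bmper, Fst and Tgfb2 lay 121 to 337 kb from these genes.

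Matrix genes flanked 17 gaps with a desert region (4.91%) and 32 without (2.69%). The shares were 6.54 and 2.45% for gaps of 200 to 500 kb and 5.69 and 3.98% for 500 kb to 1 Mb. Above 1 Mb they were 2.59 and 1.82%, with 3 gaps in each group. Beside Adamts5 and Thbs1 with 5 each there were Col12a1, a fibril-associated collagen gene, with 3 at 120 to 346 kb, Fbn2, a fibrillin gene, with 2 at 114 and 235 kb, and Fn1, the fibronectin gene, with 2 at 249 and 376 kb. The list also took Adam34l with 4, a protease-family gene whose gap ends at Fat1 on the other side. Cadherins flanked 15 gaps with (4.34%) and 25 without (2.10%), 12 of the 15 over 1 Mb long. Among gaps of 500 kb to 1 Mb the cadherin shares went the other way, 0.813 and 2.39%, and above 1 Mb they were 10.3 and 7.27%. Next to Cdh11, Fat4, Cdh5 and Fat1, with 10, 9, 7 and 4 regions, came Pcdh18, Cdh6, Cdh8 and Cdh9 with 3 each. A region between 2 cadherin genes counts for both. The regions of Cdh5 and Cdh8 are those of Cdh11, and Cdh6 and Cdh9 share theirs. The gaps beside cadherin genes had 0.605 regions per Mb where all gaps had 0.803. Among gaps over 1 Mb the values were 0.595 and 0.546. Axon guidance genes flanked 14 (4.05%) and 23 (1.93%), but among gaps of 500 kb to 1 Mb the shares were 2.44 and 2.79%. The genes with the most were Efnb2 with 5, Sema3d with 4 in 2 gaps, Unc5d with 4, and Sema3a, Epha3 and Epha7 with 3 each. Sema3d, Sema3a and Epha3 lay 107.5 to 428 kb from their regions, Efnb2 513 to 1605 kb, Unc5d 957 to 1753 kb and Epha7 2296 to 2634 kb. In the Unc5d gap to Dusp26 the 3 regions were nearer to Dusp26, at 116 to 342 kb. Those of Epha7 were nearer to Map3k7, at 362 to 700 kb. Sema3d and Sema3a share 3 regions.

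With all gap lengths pooled, the lists of neural adhesion, ion channel and chemosensory genes had lower shares among gaps with a desert region than among the others. Neural adhesion genes flanked 21 gaps with a desert region (6.07%) and 87 without (7.30%), and their gaps held 0.303 per Mb. Above 1 Mb the shares were 13.8 and 20%. Adgrl2 had 9 of their 36 regions. The list, matched by gene symbol, also took Adgrl4, whose 4 regions are among these 9. Flrt2 and Ptprd had 4 each, and Brinp1 and Cdh9 3 each. Ion channel and neurotransmitter receptor genes flanked 14 gaps with (4.05%) and 73 without (6.13%), at 0.412 per Mb. Above 1 Mb 2 of 116 occupied gaps and 16 of 165 others had such a gene. In shorter gaps the ion channel shares were closer, 4.67 and 5.42% for 200 to 500 kb and 5.69 and 5.98% for 500 kb to 1 Mb. Kcnj16 had 3 regions, Kcnip4 and Gria2 2 each, and Kcnd2, Kcna5 and the mechanically gated channel gene Piezo2 1 each, the last at 142 kb. Chemosensory receptors flanked 2 gaps with (0.578%), at Olfr1505 and Tas2r134, and 22 without (1.85%). For gaps of 500 kb to 1 Mb the chemosensory shares went the other way, 0.813 and 0.398%, with 1 gap in each group.

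Most desert regions were outside every annotated gene, noncoding ones included. The midpoint of 503 regions (84.8%) was in no RefSeq gene of any type, 88 (14.8%, exact 95% interval 12.1 to 18%) were inside a lncRNA gene and 2 inside a pseudogene. Of the sequence over 100 kb from protein-coding genes, lncRNA genes cover 9.83%. Only 6 noncoding genes held 2 desert regions. The longest were 1700123O12Rik (290 kb, between Gdf6 and 2610301B20Rik), Gm12610 (223 kb, between Cdkn2b and Dmrta1) and Gm30063 (138 kb, in the Fat4 gap). The others were Gm36408 (124 kb, beside Mad2l1), Gm35154 (90.2 kb, between Prdm1 and Prep) and Gm41238 (32.4 kb, between the endothelin receptor gene Ednrb and Pou4f1).

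Desert regions lay about as often on the start side of the nearer gene as on its end side. The strand of the nearer gene was known for 444 desert regions, and 222 (50%, exact 95% interval 45.3 to 54.7%) lay on the side of its start, where 52.6% of the eligible sequence lies. The strands of both flanking genes were known for 223 of the 346 gaps with a desert region and for 988 of all 1537 gaps. The Sox9 gap and that of Cdh11 and Cdh5 are not among them. Of the known gaps, those with both starts facing inward held 0.719 desert regions per Mb (95% Poisson interval 0.576 to 0.887). Gaps with both ends facing inward held 0.819 (0.656 to 1.01) and mixed gaps 0.777 (0.671 to 0.894). These intervals overlap. In the inner part of their gap, more than 25% of its length from either gene, lay 414 regions (69.8%), and 61.7% of the eligible sequence of those gaps. In the shortest gaps the 100 kb limit leaves only inner sequence, and shorter gaps held more desert regions per Mb. The difference between these shares was therefore not separated from gap length.

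Chromosomes differed in how densely their deserts were filled. Chromosomes 10, 8 and 3 had 1.27 (95% Poisson interval 0.919 to 1.71), 1.21 (0.891 to 1.61) and 1.20 (0.934 to 1.53) desert regions per Mb of sequence over 100 kb from a gene. On chromosome 3 there were 68, the highest number, 32.9% of its more accessible regions, and on chromosome 8 there were 47 (32.2%). The lowest autosomal densities were 0.495 (0.288 to 0.792) on chromosome 15 and 0.561 (0.359 to 0.835) on chromosome 14. The X chromosome, with 58.1 Mb of such sequence and 144 gaps over 200 kb, had 4 desert regions, 0.0689 per Mb (0.0188 to 0.176). They lay between H2al1n and Cypt1, Actrt1 and Smarca1, Pja1 and Tmem28, and Diaph2 and the protocadherin gene Pcdh19. The interval of X lies below that of every autosome. The whole more accessible list was short on X, with 29 regions against 70 to 264 on an autosome, and desert regions made up 13.8% of them, within the autosomal range of 8.57 to 32.9%. No source used here names the embryos' sex or a filter on X, so what either adds was not tested.

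**Figure D5:**
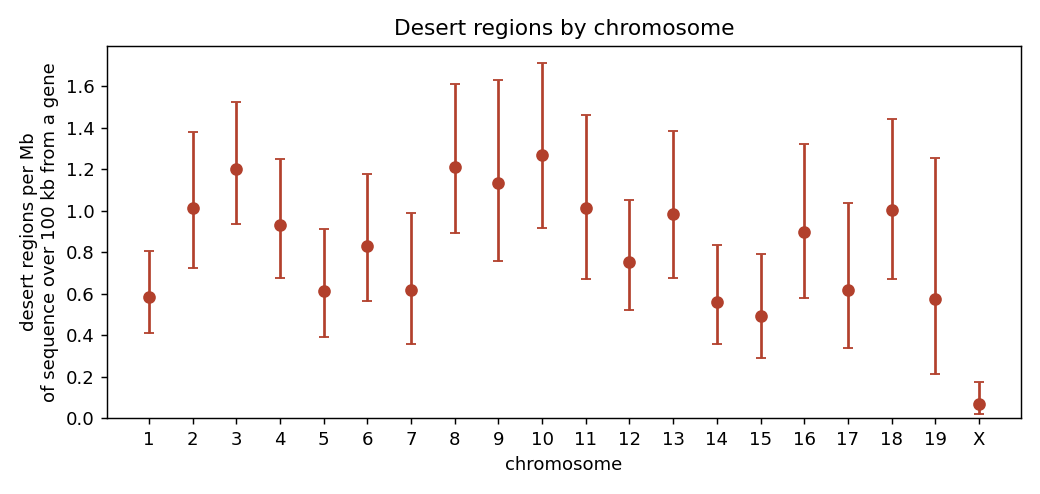
Desert regions per Mb of sequence over 100 kb from a protein-coding gene on each chromosome, with exact 95% Poisson intervals. Autosomes lie between 0.495 and 1.27 per Mb, and the X chromosome at 0.0689.

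Less accessible regions were sparse, at 0.214 per Mb over the whole annotated extent and 0.112 per Mb over 100 kb from a gene. The next less accessible region lay a median of 2076 kb from a desert region, and 16 desert regions had one within 100 kb. These distances were not measured for other more accessible regions, so they are not read as a trait of desert regions. Less accessible desert regions occupied 76 gaps, of which 23 also held a desert region of the more accessible list. That is 30.3% of the former gaps and 6.65% of the 346. Of all gaps over 200 kb, 22.5% held a desert region. Those 23 gaps held 42 more accessible desert regions and 23 less accessible ones, 1 in each gap. The gaps with the most were Slc10a2 to Efnb2, with 5 more and 1 less accessible, then Wdr11 to Fgfr2, Sema3d to Sema3a, Npvf to Gm38821, Tle1 to Aldoart1 and Bckdhb to Tent5a, with 3 and 1 each. The shortest distance from a desert region to a less accessible region was 5.48 kb, between Tle1 and Aldoart1.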

How the data were processed

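ATAC-seq libraries of 3 wild-type and 3 FOP mutant fibroblast cultures underlie a pair of region lists, 1 per direction, deposited by the authors as chromosome, start and end without a header. The submitters' processing notes name DESeq2, featureCounts, bedtools, MACS2, SAMtools, Bowtie2 and Trimmomatic as the authors' tools, and GRCm38 (mm10) as the build. No version, cutoff, treatment of the transposase offset or pooling of peaks is named there. Direction was taken from the name of each list.

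Genes were the 21883 protein-coding spans of RefSeq GRCm38.p6. Distances run from the midpoint of a region; the isolation gap of 10 kb runs between edges. Overlapping genes were merged, and gaps run between merged genes. Gene strand came from the promoter table. Positions were made 1-based. Shares carry Clopper-Pearson and densities exact Poisson intervals, at 95%. No test was run, as no values per library exist. The code (Python 3.11.15, pandas 2.3.3, scipy 1.17.1) was tested on simulated data: all 200 planted regions were recovered with their distance, gap and flanks.

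The members, family lists and rule for named genes were chosen with earlier results of these data known. The rule takes genes flanking gaps with at least 3 desert regions, the 5 longest gaps, the 5 farthest regions, those at the limits, up to 6 per list, noncoding hosts and mixed gaps. Bone and cartilage genes of lower count, X-linked flanks, and the limb, BMP and TGF-beta genes with 1 to 3 regions fall outside it and were named after their counts were seen. Alternatives changed 1 choice at a time. A few flanking genes are not reported here.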

Additional observations from a re-analysis of the deposited data

How the results depend on the processing

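No paired analysis was possible because the lists hold no value per library, and for the same reason no library could be left out. The count of desert regions stayed between 553 and 844 with an isolation gap of 5 or 20 kb, no isolation, distances from the edge, genes without placeholder names, autosomes alone, or a limit of 50 kb. With a limit of 200 kb it was 343 regions in 202 gaps. With genes of every RefSeq type as gene, which leaves less desert by construction, it was 122 regions in 94 gaps. In that setting the median width was 535.5 bp (main value 561), the density of more accessible regions over 100 kb from a gene 0.594 per Mb (main value 0.916), and the share of gaps beside a developmental transcription factor 5.32% (main value 15.6%). On autosomes alone the density was 0.988 per Mb. In the setting with genes of every type, where noncoding genes also count as flanks, the shares of all the other lists fell too. Growth factor signalling fell to 2.13% and matrix, cadherin, axon guidance and ion channel genes to 1.06% each. Bone and cartilage genes (main value 4.62%) and neural adhesion genes both fell to 3.19%, and chemosensory receptors to 0%. With 94 gaps left, these shares rest on few gaps and do not set any list apart. Over all settings the bone and cartilage share was 3.19 to 4.95%. Settings applied to results they were not planned for, and autosomes alone, were chosen after seeing the data. Regions are known only as listed, so a desert without one may hold changes below the authors' cutoff.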

Other observations

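The rule leaves out 83 more accessible regions that are over 100 kb from a gene but have a neighbour within 10 kb. Of these, 57 lay in 25 gaps that also hold a desert region. The gaps of Stxbp6 to Nova1 and of Fat4 to Intu had 4 of them each, and those of Usp25 to Cxadr, Atp5g3 to Lnpk and Plpp3 to Usp24 had 3 each. With regions near the genes included, the gap of Plpp3, a lipid phosphatase gene, to Usp24 held 10 more accessible regions, that of Gm11677 to Sox9 also 10 and that of Fat4 to Intu 15. The gaps of Dkk2, Thbs1 and Ebf1 named above held 8 each.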
